A study of Urochloa humidicola with 8 samples.

Results

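The steadiest well-expressed transcripts of young Urochloa humidicola leaves are 200 of the 48695 assembled transcripts listed for this grass. They were chosen by level and spread alone, without the lignin label. A transcript was eligible if it reached 20 CPM (its reads scaled to a library total of 1000000) in all 8 libraries and was not among the 100 most abundant. That left 4801 eligible transcripts, and the 200 with the smallest standard deviation (SD) of log2(CPM + 1) over the 8 libraries were taken. The study sequenced mRNA from the second extended leaf of 8 samples, 4 labelled high lignin and 4 labelled low lignin, and all 8 share the tissue, storage, extraction and library kit. The labels give no genotype, age, growth condition or batch, and nothing says whether the samples of a group came from separate plants. Any p-value therefore sets a group difference against the spread between these samples only.

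Urochloa humidicola is a tropical forage grass, and lignin, the phenolic polymer that stiffens its cell walls, lowers how well cattle digest it. Transcripts that keep a constant level from leaf to leaf are of practical use in plants, because quantitative PCR leans on such internal references. In plants the classical references encode parts of the cell that every tissue needs, among them actin, tubulin, ubiquitin and the translation elongation factors. The transcripts here carry a running number as their only name (asmbl_ and a number), and 0 of these IDs could be matched to a gene. Which of them encode such proteins was therefore not analysed, the tissue label could not be checked against leaf markers, and no role, sequence or genome position is given for any of them.

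Libraries held between 7717993 and 10805639 rounded reads, so the 20 CPM floor stood for 154 to 216 reads. Low lignin replicate 3 stood apart: the deviations of the 4601 other eligible transcripts from their own means had an SD of 0.77 in it on the log2 scale, against 0.40 to 0.51 in the other 7 libraries. Among the 200 steady transcripts the same SD was 0.17 in low lignin replicate 3 and 0.13 to 0.16 elsewhere, values that the choice itself made small. Together the 200 took 1.69% ± 0.082 (SD, n = 4) of all reads in the high lignin libraries. In the low lignin libraries they took 1.67% ± 0.095 (SD, n = 4). Their lowest share was 1.57% in low lignin replicate 4 and their highest 1.78% in high lignin replicate 2, and the groups overlapped.

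The spread that chose them ran from 0.085 to 0.202, with a median of 0.179, against a median of 0.443 and a maximum of 1.83 in the other eligible transcripts. In linear terms the highest library was a median of 1.44 times the lowest for a steady transcript, from 1.21 to 1.60 times, and the coefficient of variation had a median of 12.5%. The 100 most abundant transcripts, which the rule left out, had a median SD of 0.682. The 200 most variable eligible transcripts had a median SD of 1.12, and their highest library was a median of 9.96 times the lowest. These values chose the sets and are given as description.

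Membership at the edge was a matter of small differences. The last 3 transcripts inside the limit, asmbl_48157, asmbl_8296 and asmbl_9580, each had an SD of 0.202. The first 3 outside, asmbl_1911, asmbl_39472 and asmbl_40814, each had 0.203. The step across the limit was 0.000598.

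**Figure D1:**
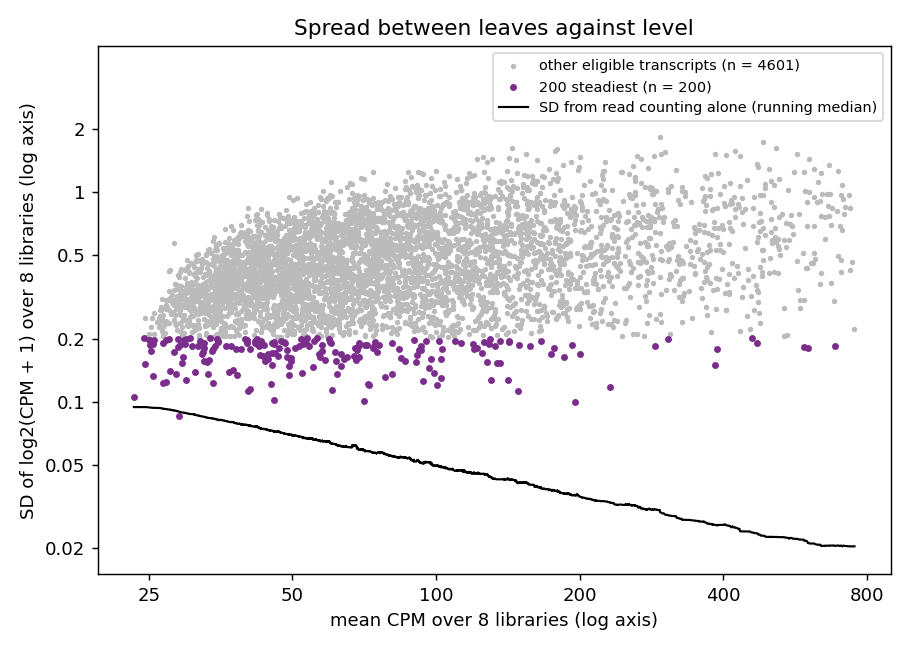
Each point is an eligible transcript, with its mean CPM on the x axis and its SD of log2(CPM + 1) over 8 libraries on the y axis (both log axes), the 200 steadiest in purple and the other 4601 in grey. The line is the running median of the SD that read counting alone would give, and most purple points lie above it, at a median of 2.65 times their own counting value.

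Counting error was small beside most of these spreads, though not all. The SD expected from read counting alone had a median of 0.065 on the log2 scale for the 200, and 0.059 for the other eligible transcripts. The observed SD was a median of 2.65 times as large in the 200, against 7.85 times in the other eligible transcripts. The observed SD is the value that chose the 200, so this gap was largely set by the choice. For 31 of the 200 the observed SD was under 2 times the counting value, and for 7 it was under 1.5 times. The steadiest, asmbl_47834, lay at 0.969 times and asmbl_47774 at 1.07 times, so at this depth their variation between libraries could not be told from counting error. At the other end asmbl_14678, among the most abundant of the 200, stood at 10.2 times its counting value. Reads carried no molecular identifiers and the reads are Salmon-style estimates, so these limits cover counting error only.

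In each of the 10 steadiest transcripts the highest library was at most 1.34 times the lowest. Transcript asmbl_47834, 3393 bases long, had 27.3, 27.7, 33.0 and 28.0 CPM in high lignin replicates 1 to 4 and 28.8, 29.0, 29.6 and 27.8 CPM in low lignin replicates 1 to 4. High lignin replicate 3 was its highest library, and the remaining 7 lay between 27.3 and 29.6 CPM. Transcript asmbl_43818, 3785 bases, had 209, 215, 191 and 196 CPM in high lignin and 192, 197, 198.1 and 170 CPM in low lignin. Low lignin replicate 4 was its lowest library, and its reads were whole numbers in all 8 libraries. Transcript asmbl_8060, 2077 bases, had 70.7, 72.5, 71.4 and 72.0 CPM in high lignin, an SD of 0.742 CPM over 4 libraries. In low lignin it had 67.1, 67.1, 80.3 and 63.2 CPM, so nearly all of its spread came from the low lignin libraries, with replicate 3 highest and replicate 4 lowest. Transcript asmbl_45703, 2086 bases, had 43.4, 47.1, 44.3 and 51.3 CPM in high lignin and 46.1, 42.4, 42.3 and 49.8 CPM in low lignin, and the groups overlapped throughout.

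Transcript asmbl_47774, 1186 bases, was the least abundant by reads of all 200, with 21.8, 21.5, 23.6 and 24.4 CPM in high lignin and 24.1, 23.5, 26.3 and 20.9 CPM in low lignin. Its lowest library was just above the 20 CPM floor, and a lower value there would have removed it. Transcript asmbl_42573, 2105 bases, had 134, 154, 166 and 154 CPM in high lignin and 148, 147, 155 and 131 CPM in low lignin. It was lowest in low lignin replicate 4 and next lowest in high lignin replicate 1. The remaining 4 of the first 10 were asmbl_2981 at 34.7 to 44.7 CPM, asmbl_31622 at 55.6 to 71.5 CPM, asmbl_19545 at 35.3 to 47.1 CPM and asmbl_22654 at 208 to 258 CPM. In asmbl_31622 every high lignin library lay above every low lignin library in CPM, though not in TPM or under TMM, and in the other 9 the groups overlapped.

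**Figure D2:**
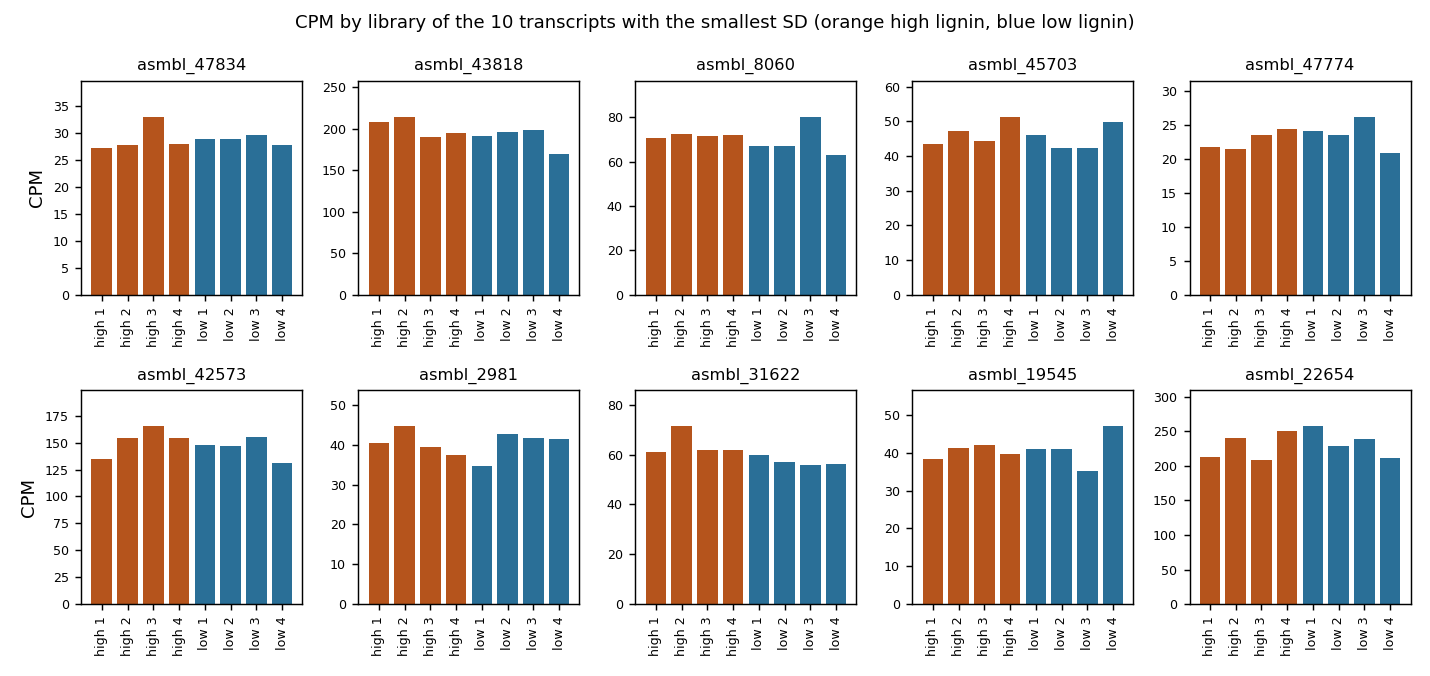
Bars give the CPM of each of the 10 transcripts with the smallest SD in the 4 high lignin libraries (orange) and the 4 low lignin libraries (blue), each panel on its own axis from 0. Within a panel the highest bar is at most 1.34 times the lowest, as in asmbl_19545, where low lignin replicate 4 is highest and low lignin replicate 3 lowest.

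Per unit of length, the 200 covered a wide range of levels. Levels between transcripts are compared in TPM, the authors' reads divided by effective length and scaled to the same total in each library. The mean over 8 libraries ran from 5.03 to 792 TPM with a median of 29.9, below the median of 49.3 in the other eligible transcripts. The most abundant per length was asmbl_14678, 914 bases, with 652, 843, 914 and 730 TPM in high lignin and 837, 898, 706 and 758 TPM in low lignin. Its highest and lowest libraries were both high lignin, so the groups overlapped completely. Transcript asmbl_9896, 917 bases, followed with 611, 757, 578 and 746 TPM in high lignin and 846, 690, 725 and 607 TPM in low lignin. The ranges of asmbl_14678 and asmbl_9896 overlapped, so their order did not exceed their spread over libraries. Next came asmbl_10372 with 465 to 677 TPM, asmbl_9580 with 383 to 561 TPM and asmbl_33988 with 401 to 561 TPM. Neighbours in this order overlapped in every case.

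Spread rose with level among the eligible transcripts. Of the eligible transcripts in the lowest quintile of mean CPM (23.3 to 43.3), 7.40% were among the 200, against 2.08% of those in the highest (146 to 753). The median SD of all eligible transcripts was 0.339 in the lowest quintile, 0.406, 0.451 and 0.494 in the next 3 and 0.556 in the highest. A transcript whose mean lies close to the 20 CPM floor is eligible only if no library falls below it, which bounds the SD of the lowest levels. How far this bound sets the shares was not tested, and nothing is read from them.

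The rule did not use length. The 200 had a median length of 1738 bases, from 212 to 6437, and the other eligible transcripts a median of 1567 bases, up to 12426. Of the 200, 172 (86.0%) were 1000 bases or longer, against 76.9% of the other eligible transcripts. The share chosen was 2.29% in the shortest quintile (up to 942 bases), 4.17% to 4.27% in the middle 3 quintiles and 5.93% in the longest (2479 bases or more). Within quintiles of mean CPM the steady transcripts had the higher median length in 4 of 5, for example 2446 against 1610 bases in the next to highest, and the lower in the highest (1490 against 1552 bases, with 20 steady transcripts). These are shares of transcripts that can share a gene, and no test was made of them.

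Very long and very short transcripts were both among the 200. The longest, asmbl_34862 at 6437 bases, had 119, 143, 137 and 105 CPM in high lignin and 140, 124, 138 and 118 CPM in low lignin. It was lowest in high lignin replicate 4, where asmbl_8430, 6360 bases, was lowest too at 114 CPM, while the latter peaked at 160 CPM in high lignin replicate 3. The third longest, asmbl_14119 at 5737 bases, ranged from 91.5 to 130 CPM. The shortest, asmbl_47982 at 212 bases, had 33.9, 32.9, 41.1 and 37.5 CPM in high lignin and 43.4, 34.3, 37.1 and 34.6 CPM in low lignin. It reached 442 TPM on average from 2758 reads in all, and at this length a TPM leans on the effective length. Transcripts asmbl_7957 and asmbl_136, 227 and 401 bases long, ranged from 26.3 to 33.2 and from 72.2 to 108 CPM.

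Reads were assigned without remainder to a part of the set. A whole estimated count in all 8 libraries, to 6 decimals, occurred in 87 of the 200 (43.5%) and in 38.2% of the other eligible transcripts. The other 113 of the 200 had a fractional count in at least 1 library, as such estimates give where reads are split between entries (alleles, isoforms or close copies, for example), and their values depend on that split. Among eligible transcripts with whole counts the median SD was 0.410, and among those with fractional counts 0.446. None of the 200 shared both its length and its estimated reads in every library with another transcript, while 25 of the 4801 eligible transcripts did.

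Transcripts were also compared with those numbered just before and after them. None of the 200 had a neighbouring number that was also among the 200. For 41 of them (20.5%) a neighbouring number was eligible, against 24.99% of the other eligible transcripts. These 43 neighbours had a median SD of 0.465, from 0.228 to 1.27, and 18 of the 43 lay below the eligible median of 0.431. Whether neighbouring numbers come from 1 locus is not known here.

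The small differences that remained were spread unevenly over libraries. The 200 lay lowest in low lignin replicate 4, by a median of -0.12 on the log2 scale against their own means, and 54 of the 200 (27.0%) had their lowest value there. The other eligible transcripts lay lower still in that library, by a median of -0.17, and 21.3% of them had their lowest value there. The 200 lay highest in low lignin replicate 2 (median 0.090) and high lignin replicate 2 (median 0.086), which held the highest value of 47 and 41 of them. The other eligible transcripts had medians of 0.027 and 0.13 in these libraries, which held the highest value of 13.8% and 16.5% of them. Low lignin replicate 3 held the highest value of 39 of the 200 (19.5%), against 30.9% of the other eligible transcripts. The sign of the median was the same for the 200 and for the other eligible transcripts in all 8 libraries on the CPM scale. The share of the 200 within 10% of their own mean was largest in high lignin replicate 4, at 145 transcripts (72.5%), and smallest in low lignin replicate 4, at 97 (48.5%).

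**Figure D3:**
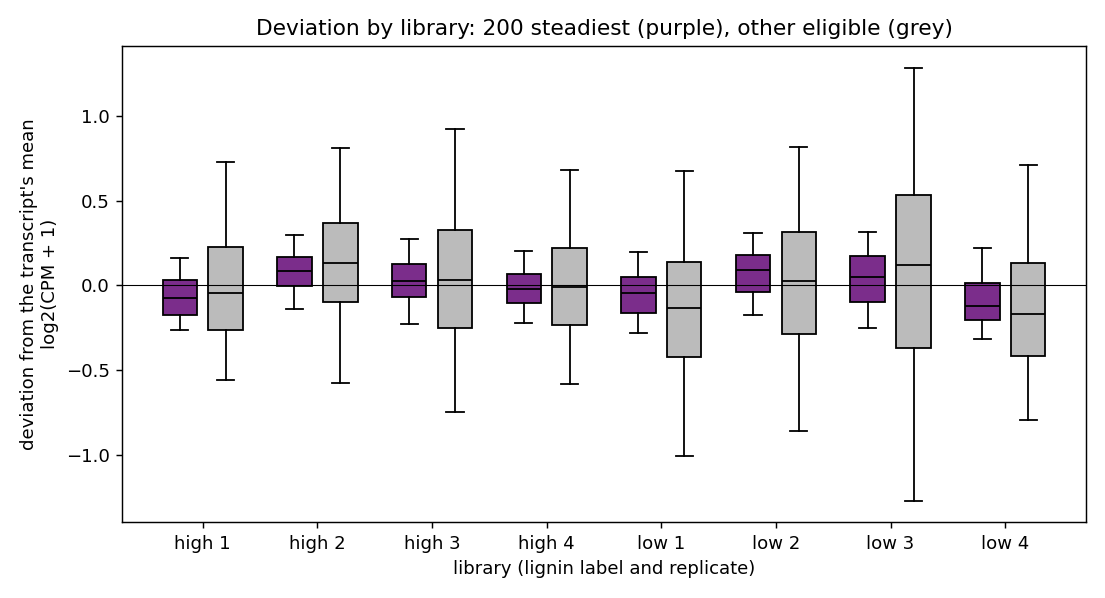
For each library, boxes give the deviation of a transcript from its own mean of log2(CPM + 1), in purple for the 200 steadiest and in grey for the 4601 other eligible transcripts. Boxes span the quartiles with the median as a line, and whiskers run from the 5th to the 95th percentile. Grey boxes are widest in low lignin replicate 3, and purple medians lie between -0.12 in low lignin replicate 4 and 0.090 in low lignin replicate 2.

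In each library a different transcript lay farthest from its own mean. In low lignin replicate 4 it was asmbl_33713, 2160 bases, at 20.3 CPM there against 28.0 to 31.4 CPM in the other 7 libraries, a deviation of -0.47. In low lignin replicate 2 it was asmbl_36574, 2265 bases, at 72.4 CPM against 45.9 to 52.6 CPM elsewhere, a deviation of 0.45. In both, 7 libraries lay close together and 1 apart. The largest in low lignin replicate 3 was asmbl_1631 (36.0 CPM, 0.40) and in low lignin replicate 1 asmbl_7327 (355 CPM, -0.40). In high lignin replicates 1 to 4 the farthest were asmbl_42081 at 26.5 CPM (-0.36), asmbl_35535 at 103 CPM (0.36), asmbl_25763 at 54.8 CPM (0.40) and asmbl_9047 at 38.4 CPM (0.37).

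Steadiness was next read in libraries that had no part in the choice. When 200 transcripts were chosen by the same rule on the 4 high lignin libraries, their median SD there was 0.076, and in the 4 low lignin libraries it was 0.375. All 6038 transcripts eligible on the high lignin libraries had a median of 0.506 in low lignin, and 140 of the 200 lay below it. When 200 were chosen on the 4 low lignin libraries, their median SD was 0.114 there and 0.268 in high lignin, against 0.323 for all 5223 eligible transcripts, and 131 of the 200 lay below that median. So the transcripts chosen in either group were less variable than the eligible median in the other group, by a smaller margin than in the libraries that chose them. The eligible transcripts were not matched to the chosen by level, with which spread rose. How far level sets this margin was not tested. Without low lignin replicate 3 the first comparison gave 0.285 against 0.363. Of the 200 chosen on high lignin, 11 (5.5%) were also among the 200 with the smallest SD in low lignin, which are 3.31% of the 6038 eligible. In the other direction 13 (6.5%) were, against 3.83% of the 5223 eligible, and neither overlap was tested.

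**Figure D4:**
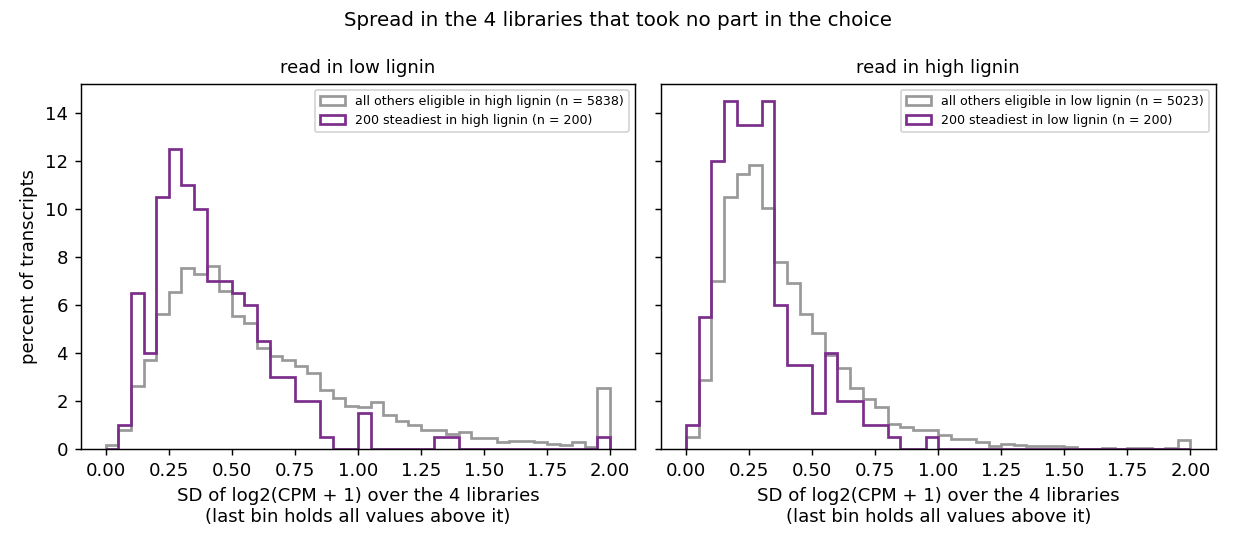
Histograms give the SD of log2(CPM + 1) over the 4 libraries of the group that took no part in the choice, as percent of transcripts, for the 200 chosen on the other group (purple) and all others eligible there (grey). On the left the 200 chosen on high lignin have a median of 0.375 in low lignin, and on the right the 200 chosen on low lignin have a median of 0.268 in high lignin.

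Leaving out 1 library at a time gave the same picture in each of the 8 libraries. The 200 chosen on 7 libraries deviated in the eighth by a median of 0.16 to 0.29 on the log2 scale for 7 of the libraries, against 0.25 to 0.36 over all eligible transcripts. In low lignin replicate 3 the medians were 0.41 and 0.55. There 17 of the 200 chosen lay at least 2-fold from the mean of the other 7 libraries, against 25.6% of all eligible transcripts. In the other libraries 0 to 5 of the 200 chosen did, against 4.14% to 11.3% of all eligible transcripts. The 200 chosen without low lignin replicate 3 lay above their mean in it by a median of 0.35, where all eligible transcripts lay above by 0.061. With scaling by TMM (edgeR's trimmed mean of M-values), whose factor for that library was 1.18, these medians were 0.13 and -0.21. On the CPM scale the chosen transcripts were shifted the same way as all eligible transcripts, and farther, in every other left-out library too. The medians were 0.20 against 0.026 in low lignin replicate 2, -0.19 against -0.062 in high lignin replicate 1 and -0.27 against -0.20 in low lignin replicate 4. In low lignin replicate 1 they were nearly equal, at -0.169 and -0.166.

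Membership was also followed when the rule was applied to 7 libraries or to other scalings. Each choice from 7 libraries shares those 7 with the ranking itself, so that the transcripts with the smallest SDs were kept in it follows largely from the values that ranked them. All of ranks 1 to 51 were chosen in each of the 8 choices from 7 libraries. Of the last 50 ranks, 0 were. In all, 72 of the 200 were chosen every time, 107 at least 6 times and every one at least once. The fewest, 98 of 200, remained without low lignin replicate 3, and 134 to 150 remained without any other library. Scaling by TMM in place of library totals kept 101 of the 200, with 32 of the first 50 ranks and 21 of the last 50.

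The study asked which transcripts differ between high and low lignin leaves, and for the steady transcripts no difference was called. In edgeR's quasi-likelihood test over 27015 transcripts, 0 of the 200 passed an adjusted p of 0.05, where 0.0% of all transcripts did, and 0 of the 200 had an unadjusted p under 0.05, where 5.85% of all did. DESeq2 called 0 of the 200 as well (0.796% of all), with 1 of the 200 at an unadjusted p under 0.05 (7.47% of all). Limma with voom called 0 of the 200 (0.0% of all), with 0 at an unadjusted p under 0.05 (6.77% of all). The likelihood ratio test of edgeR and limma on log2(TPM + 1) called 0 of the 200 too, where they called 0.174% and 0.0316% of all transcripts. Because a small SD over the same 8 libraries bounds any group difference, nothing is read from these counts. The log2 fold changes, high minus low, had a median of -0.015 in the 200 and 0.007 in the other eligible transcripts, with 91 above and 109 below 0 in the 200. The median size was 0.10 against 0.28, and the median standard error in edgeR 0.20 against 0.30. For all 200 the 95% interval of the fold change lay within 2-fold in either direction, as it did for 50.6% of the other eligible transcripts. The small SD that chose the 200 bounds these sizes and intervals too, so nothing is read from these contrasts.

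The largest fold changes among the 200 lay in a range that the choice itself keeps narrow. Transcript asmbl_7032, 1688 bases, had 38.8, 41.2, 39.8 and 41.9 CPM in high lignin and 47.5, 51.0, 53.1 and 48.9 CPM in low lignin. The groups did not overlap, with a log2 fold change of -0.33 (standard error 0.18). Its adjusted p by edgeR was 0.839, the lowest of the 200. Its spread within a group, an SD of 0.048 in high and 0.069 in low lignin on the log2 scale, was smaller than the difference. Transcript asmbl_5854, 1741 bases, had 43.2, 46.9, 43.9 and 48.3 CPM in high lignin and 61.4, 55.9, 48.9 and 56.6 CPM in low lignin, a fold change of -0.33, and its groups overlapped under the other 3 scalings. Transcript asmbl_35142 followed at -0.30, with 42.7 to 52.8 CPM in high and 52.1 to 64.7 CPM in low lignin, where the groups overlapped slightly. In the other direction asmbl_25937, 4250 bases, had 83.1, 89.5, 78.3 and 79.6 CPM in high lignin and 64.9, 74.1, 60.6 and 66.4 CPM in low lignin, a fold change of 0.28 with an interval from -0.17 to 0.73. Transcripts asmbl_9047 and asmbl_6926 had fold changes of 0.28 and 0.27. In asmbl_6926 the 4 low lignin libraries lay between 56.0 and 58.6 CPM and the high lignin libraries between 65.0 and 76.3 CPM, though under TMM the groups overlapped.

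The standard error from the libraries of a transcript alone had a median of 0.12 in the 200, against 0.20 in edgeR, which borrows spread from all transcripts. In the other eligible transcripts both medians were 0.30. The value of 0.12 comes from the same 8 libraries whose small spread chose the 200, so the choice itself made it small. It was computed on log2(CPM + 1), while the edgeR value used TMM scaling. How much each adds to the gap was not tested, and nothing is read from it. Group accounted for a median of 8.48% of the variance of log2(CPM + 1) in the 200 and 10.9% in the other eligible transcripts. Without low lignin replicate 3 the medians were 11.2% and 17.6%. Any split of so few libraries gives some such share, and no reference for it was computed, so nothing is read from these shares.

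In 8 of the 200 (4.0%) every library of one group lay above every library of the other, against 4.26% of the 27015 tested transcripts and 5.14% of the eligible transcripts, shares near one another. High lignin was the higher group in 5 of the 8 (2.82% of tested and 4.27% of eligible transcripts) and the lower in 3 (1.45% of tested and 0.875% of eligible transcripts). With scaling by TMM there were 5 (4.57% of tested and 5.79% of eligible transcripts), of which 2 were higher in high lignin (3.85% of eligible transcripts) and 3 lower (1.94%). The split by direction therefore moved with the scaling. In 4 the groups did not overlap under CPM, TPM, TMM and DESeq2 size factors alike (2.0%, against 3.29% of tested and 3.37% of eligible transcripts). These were asmbl_25937 and asmbl_35387, higher in high lignin, and asmbl_7032 and asmbl_5439, lower. Transcript asmbl_5439, 2626 bases, had 23.1, 25.2, 22.4 and 23.5 CPM in high lignin and 26.4, 26.0, 29.3 and 28.3 CPM in low lignin. Transcript asmbl_35387, 2349 bases, had 135, 160, 131 and 128 CPM in high lignin and 120, 117, 115 and 101 CPM in low lignin. The other 4 did not separate the groups under every scaling. Transcripts asmbl_31622 and asmbl_5854 overlapped under TPM, TMM and DESeq2 size factors alike. Transcript asmbl_6926 overlapped under TMM and DESeq2 size factors, as did asmbl_47497, 1241 bases, with 146 to 189 CPM in high and 129 to 146 CPM in low lignin. The members of these lists that the naming rule did not give were named after their values were seen.

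**Figure D5:**
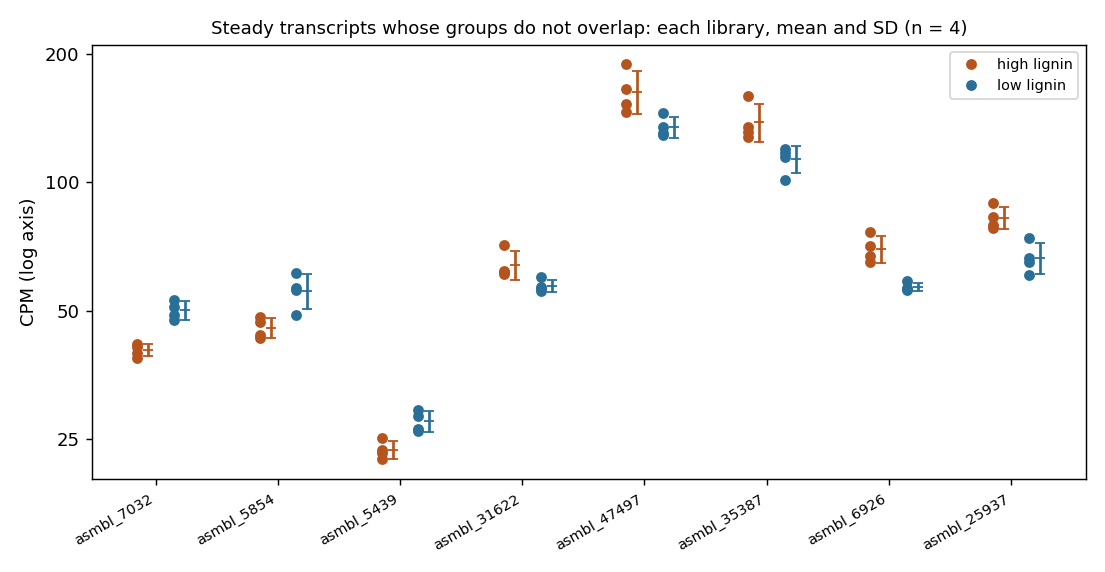
Points give the CPM (log axis) of each high lignin library (orange) and low lignin library (blue) for the 8 steady transcripts whose groups do not overlap in CPM (4 of them under all 4 scalings), with the mean and SD (n = 4) beside them. The 3 on the left are lower in high lignin, and the gap is widest for asmbl_7032 relative to its spread, at 38.8 to 41.9 against 47.5 to 53.1 CPM.

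Transcripts chosen on each group separately have a small SD within each group by the choice itself, which sets no bound on their difference between groups. Their SDs within a group are therefore given as description. Of the 11 chosen on both high and low lignin libraries, 8 were among the 200. Transcript asmbl_43818 had an SD of 0.079 in high and 0.103 in low lignin and differed between them by 0.10, and asmbl_47774 had 0.085 and 0.130 and differed by -0.049. Transcripts asmbl_5439, asmbl_5854, asmbl_7032, asmbl_47023, asmbl_36712 and asmbl_25937 had SDs of 0.048 to 0.090 in high and 0.069 to 0.134 in low lignin, and differed between groups by -0.22, -0.28, -0.30, -0.24, -0.18 and 0.31 in mean log2(CPM + 1). So 2 of the 8 lay within 0.10 of the same level in both groups, and 5 of the other 6 were lower in high lignin. The rest of the 11 (asmbl_27032, asmbl_15389 and asmbl_45416) were all higher in high lignin, by 0.52, 0.39 and 0.35. Their SD over all 8 libraries, which includes the group difference, kept them outside the 200. Nothing is therefore read from the directions among the 8.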

How the data were processed

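Leaf RNA from 8 samples (4 high lignin, 4 low lignin by the treatment label) was analysed. The deposited file of each library gives length, effective length, TPM and estimated counts for 48695 transcripts. Salmon 0.7.2, StringTie 2.0.4 and FastQC 0.11.8 are listed, with no role, in the submitters' processing notes, and Salmon's column names appear per the file headers. For the assembly, genome build, filters and strand setting nothing is given in the sources used here. Estimated counts, as deposited by the authors, are not normalized. The TPM values deposited by the authors sum to 1000000 per library and keep no depth. Lengths, in bases, are as deposited.

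Estimated counts were rounded, and CPM was computed from their library sums (7717993 to 10805639). The SD used log2(CPM + 1). The 200 transcripts and the rules were chosen with earlier results of these data known. High and low lignin were compared with edgeR 4.0.16 in R 4.3.3 (filterByExpr, TMM, quasi-likelihood test, group as the only term), with Benjamini-Hochberg adjustment over 27015 transcripts and a two-sided threshold of 0.05. A standard error is the fold change divided by the root of F. Alternatives were DESeq2 1.42.0, limma 3.58.1 with voom or on log2(TPM + 1) for transcripts at 1 TPM in 4 libraries, other scalings, floors and spread measures, and each library left out. For another scaling, only the SD changed and the floor stayed on CPM. Counting SD was computed from read numbers as Poisson. Scripts were tested on simulated data. Named transcripts were the 10 with the smallest SD, the 5 highest in TPM, the 3 with the largest fold change each way, the 3 longest and shortest, the 3 on each side of the limit and the farthest in each library. Replicate numbers follow the order of the samples and pair nothing.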

Additional observations from a re-analysis of the deposited data

Results flagged for a closer look

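Of 82 checks of the named transcripts and of the whole set, each on 4 libraries of a group, 6 had a library whose gap to the nearest other, relative to the range, passed Dixon's criterion at the 95% level. Chance passes about 5% of such checks. In high lignin, asmbl_47834 stood at 33.0 CPM in replicate 3 against 27.3, 27.7 and 28.0 in the others, and asmbl_31622 at 71.5 CPM in replicate 2 against 61.1, 61.7 and 61.8. In low lignin, asmbl_2981 stood low at 34.7 CPM in replicate 1 against 41.6 to 42.8. Transcript asmbl_48157 stood high at 65.6 CPM in low lignin replicate 3 against 52.9 to 55.0. Transcript asmbl_6926 stood at 58.6 CPM in low lignin replicate 2 against 56.0 to 56.5. Transcript asmbl_1911, just outside the set, stood at 32.6 CPM in low lignin replicate 4 against 23.5 to 24.9. The 6 fell in 6 different libraries.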

How the results depend on the processing

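Which transcripts are the 200 steadiest depended on the processing. Of the 200, TMM kept 101, DESeq2 size factors 112, a floor of 50 CPM 88 (transcripts under it drop out by construction) and the median absolute deviation 61, and 98 to 150 remained with 1 library left out. The cause was not tested. The 5 other alternatives kept 143 or more. The median SD of the 200 stayed between 0.165 and 0.181 under TPM, TMM, DESeq2 size factors and a pseudocount of 0.5, and between 0.168 and 0.181 with 1 library left out. The transcripts whose groups do not overlap numbered 5 under TMM, 4 under all 4 scalings alike (added after seeing the data) and 9 to 18 with 1 library left out, where fewer libraries have to separate. With 1 library left out, 5.90% to 10.35% of tested and 6.67% to 13.5% of eligible transcripts did not overlap either. The 18 (9.0%) came without low lignin replicate 3, where 10.35% of tested and 13.5% of eligible transcripts did not overlap. No steady transcript was called in any of the other fits or with 1 library left out (0 to 0). The other fits called 0.0% to 0.796% of all transcripts. With 1 library left out, 0 of the 28285 to 28528 transcripts tested were called. The rule bounds the group difference, so nothing is read from these counts. Without low lignin replicate 3, 2 of the 200 had an unadjusted p under 0.05 by edgeR, as did 2450 of all 28285 tested. The lowest adjusted p of the 200 ranged from 0.382 (DESeq2) to 0.998 (edgeR without high lignin replicate 1). The SD in libraries that had no part in the choice ranged from 0.285 to 0.431 in low lignin and from 0.223 to 0.291 in high lignin with 1 library left out, below the eligible median in every case. Values for transcripts eligible in all 8 libraries and TPM and TMM for held-out libraries, added after seeing the data, moved by less than their spread. No paired analysis was possible because nothing in the labels pairs a high with a low lignin sample. Depth limits what can be said of asmbl_47834 and asmbl_47774, whose spread was about the size of counting error.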

Other observations

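The other 3 of the 11 transcripts chosen on each group separately fell outside the 200, and each lay higher in high lignin. They were named after their values were seen. Transcript asmbl_27032, 3278 bases long, had 101, 105, 99.0 and 101 CPM in high lignin and 67.1, 72.3, 79.3 and 64.0 CPM in low lignin, with a log2 fold change of 0.51 (standard error 0.17, adjusted p = 0.827 by edgeR). Its SD was 0.033 in high and 0.133 in low lignin on the log2 scale, and it ranked at 984 of 4801. Transcript asmbl_15389, 4724 bases, had 176 to 202 CPM in high lignin and 129 to 159 CPM in low lignin, a log2 fold change of 0.37. Transcript asmbl_45416, 2182 bases, had 35.8 to 39.3 CPM in high lignin and 27.7 to 32.7 CPM in low lignin, a log2 fold change of 0.32.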
